A study of Bos taurus with 8 samples.

Results

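The genes described here are 40 genes of the actin cytoskeleton: the actin isoforms, the tropomyosins, calponins and other proteins of the thin filament, the myosin II chains and their kinase, actin crosslinkers, proteins of the focal adhesion plaque, LIM domain proteins bound to actin, and serum response factor (SRF) with its cofactors. They were taken by gene symbol from the count table and are 40 of the 32637 genes with values. Their levels were compared between bovine embryonic stem cells (bESCs) cultured on mouse embryonic fibroblasts (MEF), a feeder layer, and the same bESC lines cultured feeder-free on vitronectin (VTN), a matrix protein that integrins bind. The 4 lines, named A, C, D and E, had been derived from in vitro-produced embryos on irradiated CF1 MEF, and each gave 1 library per condition, so that n = 4 lines per condition.

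All 8 cultures were kept in 5% O2. By the sample records, cells on MEF were at passage 15 to 17 and cells on VTN at passage 20 to 22, so the effects of culture matrix and of passage cannot be told apart. The records name the medium with Activin A in both conditions, whereas the methods of the study give Activin A as an addition for feeder-free culture. Total counts on genes were 44268717 in line A, 54296425 in line C, 47836940 in line D and 45206672 in line E on MEF. In feeder-free conditions they were 49671478, 51320214, 102351560 and 51068232 in the same order, so line D was sequenced far more deeply than the other lines. Counts were scaled to CPM (counts relative to the library total) with TMM factors, and every fold change is feeder-free over MEF on a log2 scale.

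Actin filaments are built from monomers, stabilised by tropomyosin, pulled by myosin II and anchored to the matrix through integrins at focal adhesions, where proteins such as vinculin and zyxin gather under tension. Monomeric actin binds the cofactors MRTFA and MRTFB and keeps them from the nucleus. When actin polymerises, the cofactors are freed and act with SRF at a DNA element called the CArG box, which is found at many genes for actin, calponin and other contractile proteins. In cells attached to a stiff or adhesive matrix this pathway is known to be active, and several of its target genes are also classical markers of smooth muscle.

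The bESC label was checked first. POU5F1, a core pluripotency factor, had a mean of 2048 CPM on MEF and 1850 CPM in feeder-free conditions, and the 7 stem cell markers in the table (TDGF1 was not listed under that name) summed to 4931 ± 296 CPM on MEF and 4277 ± 291 CPM feeder-free (SD, n = 4). None of the 7 passed the thresholds in edgeR's quasi-likelihood test on condition alone, although 5 were lower at an unadjusted p under 0.05, against 11.4% of all genes. DESeq2 called 1 lower and limma-voom 0. SALL4, at -0.58 (SE 0.11, edgeR adjusted p = 0.0426), missed the fold threshold alone. SALL4, SOX2 and LIN28B lay wholly lower in feeder-free conditions, as did 8.36% of all genes. With the line as a paired term, OTX2, a factor of the epiblast, was called lower, at -0.66 (SE 0.10, edgeR adjusted p = 0.00495), and was lower in all 4 lines.

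The actin and focal adhesion genes were, as a list, higher in feeder-free bESCs than in bESCs on MEF. Per the study's methods, reads from MEF alone that aligned to cattle were taken out of the MEF-condition counts only. The effect of this step on these genes, and of any mouse reads left, was not tested. A positive log2 fold change was found for 37 of the 40 genes, which is 92.5% against 50.6% of all genes tested. The median log2 fold change of the 40 genes was 0.70, with a range from -0.48 to 4.23, whereas the median of the 15744 genes tested was 0.01. In edgeR's quasi-likelihood test on condition alone, with calls made at a Benjamini-Hochberg adjusted p under 0.05 together with a change of 1.5 times or more, 5 members were upregulated (TAGLN, CNN1, CNN3, MYL12A and FHL2), which is 12.5% of the list, where 0.724% of all genes were called higher. No member was called lower by edgeR, DESeq2 or limma-voom, where edgeR called 1.00% of all genes lower. At an unadjusted p under 0.05, 22 members were higher and 1 (FHL1) was lower, against 10.2% of all genes higher and 11.4% lower.

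The lines differed in their levels of these genes in both conditions, and a fit with the line as a paired term removes that spread. In this paired fit, 22 members, 55% of the list, were upregulated and 0 downregulated, against 5.52% of all genes higher and 4.53% lower. The 17 added to the 5 were ACTB, ACTA2, ACTG2, TPM1, TPM2, CNN2, CALD1, LMOD1, MYL6, MYL9, MYH9, MYLK, VCL, ZYX, PDLIM7, CSRP1 and SRF. When each line was left out in turn, 10 of the 22 remained upregulated every time: ACTB, TPM2, TAGLN, CNN1, CNN2, CNN3, MYL9, MYL12A, VCL and FHL2. The other 12 were no longer called without line C, among them 10 without line D and 7 without line E, and MYL6 was also lost without line A. Without line A the count was 24. In the unpaired fit, 17 members were called without feeder-free line A, and 0 without any one of the other 7 libraries, with 17 to 22 higher at an unadjusted p under 0.05. P-values of the unpaired fit measure the change against the spread of the 4 lines within a condition. Those of the paired fit measure it against the spread of the within-line change over the 4 lines.

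TPM1, TPM2 and FHL1 are also on a list that the study drew in part from these libraries, as genes raised in feeder-free culture, so the rise of TPM1 and TPM2 is not independent evidence. In the deposited counts FHL1 was lower in feeder-free conditions in all 4 lines. The remaining 37 members had a median log2 fold change of 0.66, with 5 upregulated in the unpaired and 20 in the paired fit. In bulk RNA, a change in the number of cells of a type and a change in RNA per cell cannot be told apart.

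**Figure D1:**
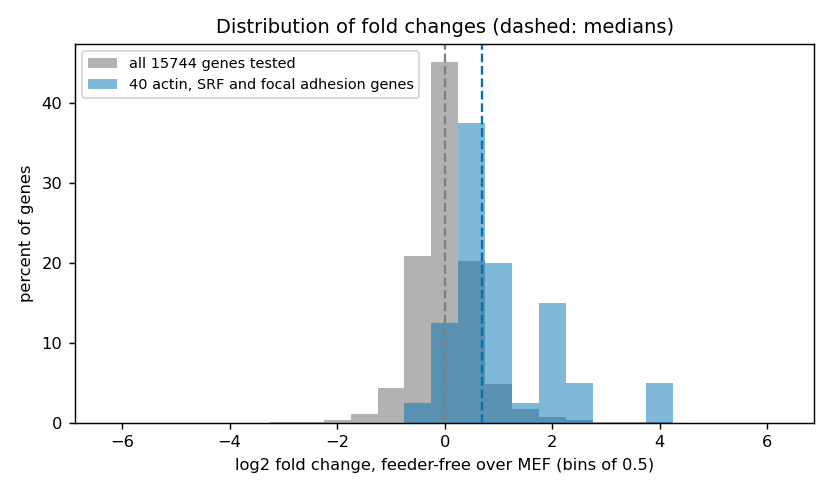
Percent of genes (vertical axis) in each bin of log2 fold change, feeder-free over MEF (horizontal axis), for the 40 genes (blue) and for all 15744 genes tested (grey), with dashed lines at the medians of 0.70 and 0.01. The blue bars lie mostly to the right of 0, with single genes out to 4.23.

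Within lines, the change was uneven. The median log2 ratio of the 40 members was 0.05 in line A, 0.81 in line C, 1.05 in line D and 0.65 in line E, whereas the median of all genes lay within 0.01 of 0 in every line. At least 1.5 times higher levels in feeder-free conditions were seen for 5 members in line A (12.5% of the list), against 17.3% of all genes. In line C there were 25 such members (62.5%), against 12.3% of all genes. Line D had 31 (77.5%), against 15.8%, and line E had 23 (57.5%), against 19.9%. The share in line A was thus below that of all genes, and the 5 members that passed there were TPM2, TAGLN, MYL9, VCL and FHL2. With 1 library per line and condition, whether lines differ in their response could not be tested.

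Across all 4 lines, 23 members (57.5%) were higher in feeder-free conditions in every line, against 20.2% of all genes, and FHL1 and MRTFA were lower in every line. The 4 feeder-free values lay above the 4 MEF values without overlap for 6 members (15% of the list), TPM1, TPM2, CNN2, CNN3, MYL12A and FHL2, against 6.21% of all genes. No member lay wholly lower in feeder-free conditions, against 8.36% of all genes.

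**Figure D2:**
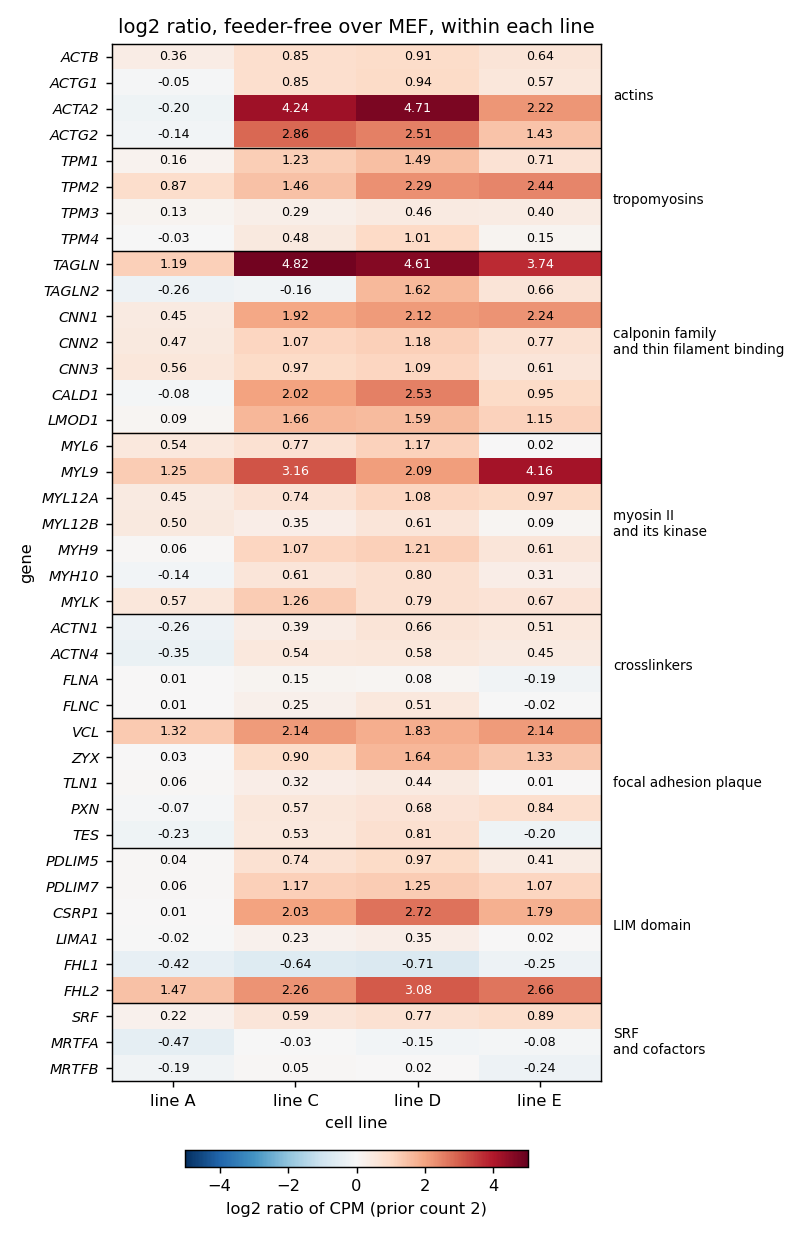
Heatmap of the log2 ratio of CPM, feeder-free over MEF, for each of the 40 genes (rows, grouped by role) in each line (columns), with the value printed in each cell. The column of line A is pale, with a median of 0.05, and those of lines C, D and E are mostly red, the deepest cells being TAGLN and ACTA2 in lines C and D and MYL9 in line E.

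Line D had the highest levels of most of these genes in both conditions. In feeder-free conditions line D had the highest level of 37 of the 40 members, where it was highest for 28.5% of all genes, and line A had the lowest level of 34, where it was lowest for 33.1% of all genes. On MEF, line D was already highest for 29 of the 40 members (26.8% of all genes), while the lowest level was spread over line A (14 members), line E (13), line C (10) and line D (3). The summed level of the 40 members was 14206, 16126, 18982 and 16563 CPM in lines A, C, D and E on MEF and 15309, 29123, 38727 and 24887 CPM in feeder-free conditions. As a share of all counts on genes this was 1.34%, 1.64%, 1.92% and 1.62% on MEF and 1.54%, 3.01%, 3.87% and 2.53% in feeder-free conditions. The sum rose 1.08 times in line A, 1.81 times in line C, 2.04 times in line D and 1.503 times in line E. ACTB and ACTG1 made up a large part of it. Of all counts on genes, these actins held 0.717%, 0.830%, 0.973% and 0.897% on MEF and 0.820%, 1.53%, 1.83% and 1.42% feeder-free, in lines A, C, D and E. The other members held 0.620%, 0.806%, 0.948% and 0.721% on MEF and 0.716%, 1.49%, 2.04% and 1.12% feeder-free.

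All 7 calponin family and thin filament genes had a positive fold change (median 1.28), 3 were upregulated in the unpaired fit and 6 in the paired fit. From here on, 4 values in a row are those of lines A, C, D and E in that order. TAGLN, which encodes transgelin, an actin-binding protein of the calponin family and a standard SRF target (chromosome 15, 27889685 to 27894949 on ARS-UCD2.0), had 34.4, 42.1, 88.6 and 60.2 CPM on MEF and 78.4, 1187, 2158 and 805 CPM in feeder-free conditions. Feeder-free lines C, D and E were far above every MEF library, while feeder-free line A was above its own MEF library and below that of line D, so the groups overlapped. The log2 fold change of TAGLN was 4.23 (SE 0.82, edgeR adjusted p = 0.0414) and 3.69 in the paired fit (SE 0.54, edgeR adjusted p = 0.00346), the largest of the list in both fits. Without feeder-free line D the unpaired value of TAGLN was 3.62. The mean level went from 56.3 ± 24.1 to 1057 ± 866 CPM (SD, n = 4), a ratio of 18.8.

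CNN1 encodes calponin 1, the smooth muscle form of a protein that restrains myosin on actin (chromosome 7, 15883452 to 15891280). Its values were 53.5, 61.5, 75.8 and 50.2 CPM on MEF and 72.9, 232, 329.6 and 238 CPM in feeder-free conditions. As with TAGLN, only feeder-free line A fell within the range of the MEF libraries. For CNN1 the log2 fold change was 1.86 (SE 0.38, edgeR adjusted p = 0.0486), near the threshold, and 1.70 in the paired fit (SE 0.26, edgeR adjusted p = 0.00424). CNN1 was not called when counts were scaled by library size alone.

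CNN3, the calponin of non-muscle cells (chromosome 3, 48568965 to 48599127, overlapping SLC44A3 in the annotation), had 148, 146, 165 and 164 CPM on MEF and 217, 286, 352 and 251 CPM in feeder-free conditions. Here every feeder-free library, that of line A included, was above every MEF library. The change was small but tight: the log2 fold change was 0.83 (SE 0.16, edgeR adjusted p = 0.0403), a ratio of means of 1.77. CNN2, the third calponin, had 223, 208, 277 and 287 CPM on MEF and 309, 435, 626 and 489.9 CPM in feeder-free conditions, again without overlap. Its log2 fold change was 0.90 (SE 0.21, edgeR adjusted p = 0.0594) and passed in the paired fit, at 0.87 (SE 0.13, edgeR adjusted p = 0.00396).

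CALD1, which encodes caldesmon, a protein that binds actin, tropomyosin and myosin, had 62.9, 56.4, 79.5 and 51.6 CPM on MEF and 59.5, 229, 461 and 99.8 CPM in feeder-free conditions. Lines C, D and E were above every MEF library and line A was inside the MEF range. Without the pairing CALD1 had a log2 fold change of 1.76 (SE 0.54, edgeR adjusted p = 0.107), and 1.37 in the paired fit (SE 0.36, edgeR adjusted p = 0.0303). Leaving out feeder-free line D gave 1.05 without the pairing. LMOD1, leiomodin 1, an actin filament nucleator of smooth muscle, was detected at low levels, with means of 7.44 ± 1.54 CPM on MEF and 18.0 ± 8.44 CPM feeder-free (SD, n = 4), and passed in the paired fit at 1.14 (SE 0.25, edgeR adjusted p = 0.0162). TAGLN2 was the 1 gene of the 7 that passed in neither fit.

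**Figure D3:**
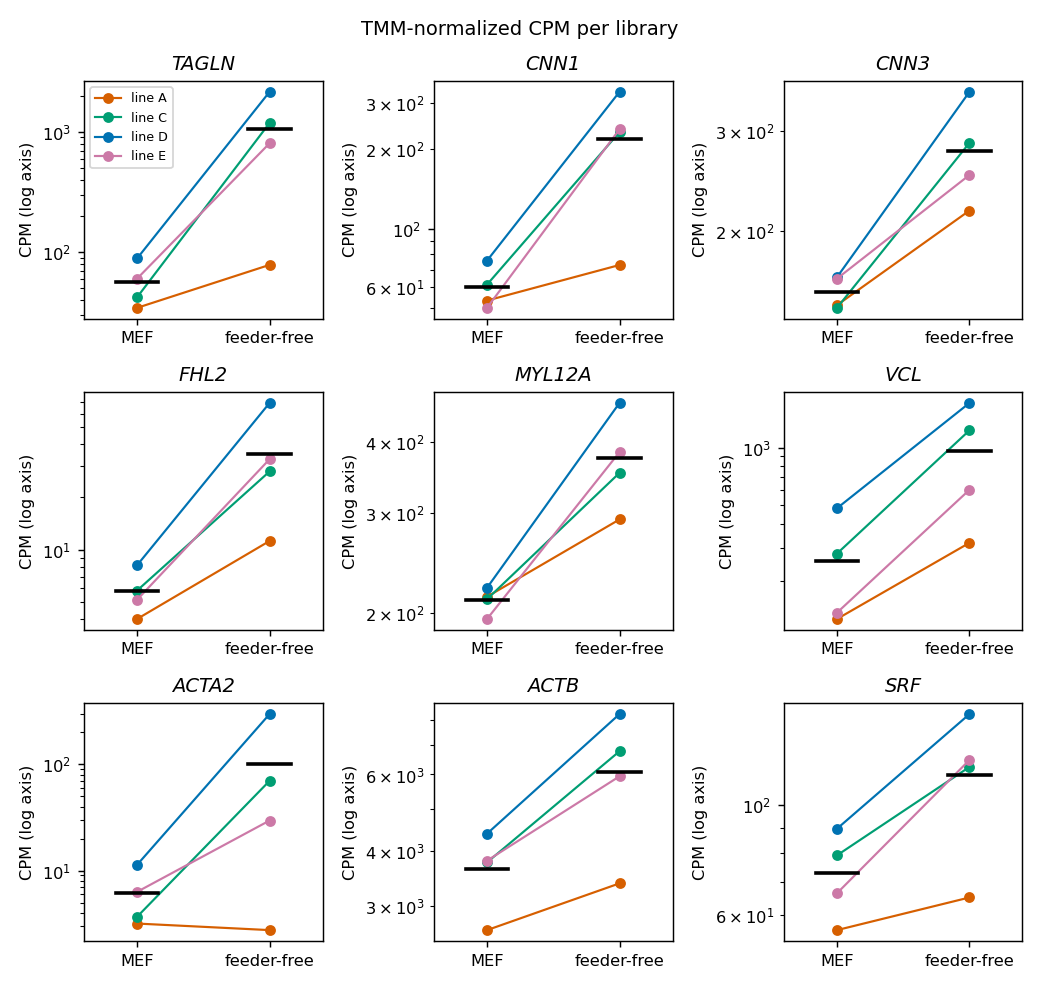
CPM on a log axis for 9 genes on MEF and in feeder-free conditions, with 1 point per library, a line joining the libraries of each cell line, and black bars at the mean of the 4 lines. Feeder-free line A (orange) is the lowest feeder-free point in every panel and line D (blue) the highest, and the MEF and feeder-free points are fully separate for CNN3, FHL2 and MYL12A.

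Among the LIM domain proteins, which bind actin, focal adhesions or partner proteins through paired zinc fingers, 1 of 6 (FHL2) was upregulated in the unpaired and 3 in the paired fit. FHL2 encodes a LIM-only cofactor that moves between focal adhesions and the nucleus and is itself an SRF target (chromosome 11, 9268664 to 9322756). It had 4.01, 5.83, 8.14 and 5.16 CPM on MEF and 11.2, 28.0, 68.9 and 32.9 CPM in feeder-free conditions. Even feeder-free line A was above the highest MEF library. The log2 fold change of FHL2 was 2.61 (SE 0.49, edgeR adjusted p = 0.0399) and 2.39 in the paired fit (SE 0.24, edgeR adjusted p = 0.000748), and the mean rose 6.09 times, from 5.78 ± 1.74 to 35.2 ± 24.3 CPM (SD, n = 4).

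CSRP1, a LIM protein of actin bundles (chromosome 16, 80847175 to 80867560), had 63.7, 57.3, 69.2 and 50.9 CPM on MEF and 63.9, 234, 457 and 177 CPM in feeder-free conditions. The log2 ratio of line A was 0.01, while lines C, D and E had ratios of 2.03, 2.72 and 1.79. CSRP1 had a log2 fold change of 1.95 (SE 0.48, edgeR adjusted p = 0.0621) and 1.67 in the paired fit (SE 0.35, edgeR adjusted p = 0.0149). PDLIM7, an adaptor of the actin cytoskeleton with a PDZ and several LIM domains, showed the same pattern at a smaller size, with 97.2, 95.0, 105 and 82.7 CPM on MEF and 102, 214, 249.6 and 174 CPM feeder-free, and passed in the paired fit at 0.90 (SE 0.19, edgeR adjusted p = 0.0136). On MEF, LIMA1 had the highest mean CPM among these 6, whereas in feeder-free conditions CSRP1 had it (233 CPM against 204 CPM for LIMA1). The log2 fold change of LIMA1 was 0.16 (SE 0.15, edgeR adjusted p = 0.579).

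FHL1, named after its values were seen, went the other way from its relative FHL2. It had 33.2, 27.3, 25.7 and 32.7 CPM on MEF and 24.8, 17.5, 15.7 and 27.5 CPM in feeder-free conditions, lower in all 4 lines, though feeder-free line E overlapped the MEF range. Its log2 fold change was -0.48 (SE 0.20, edgeR adjusted p = 0.207), and -0.51 in the paired fit (SE 0.13, edgeR adjusted p = 0.0286), which is short of the 1.5 times threshold.

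All 7 genes of myosin II and its kinase had positive fold changes (median 0.83), with 1 upregulated in the unpaired and 5 in the paired fit. MYL12A, a regulatory light chain of non-muscle myosin II (chromosome 24, 37403080 to 37413273), had 214, 211, 221 and 195 CPM on MEF and 292, 353, 468 and 383 CPM in feeder-free conditions. The 4 MEF libraries were close together and all lay below the lowest feeder-free library. MYL12A had a log2 fold change of 0.83 (SE 0.15, edgeR adjusted p = 0.0391), a ratio of means of 1.78. The neighbouring MYL12B encodes a nearly identical protein, so the counting may split reads between the pair. MYL12B had a log2 fold change of 0.38 (SE 0.21, edgeR adjusted p = 0.338).

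MYL9, the regulatory light chain of smooth muscle, had 17.5, 30.4, 95.9 and 8.54 CPM on MEF and 41.9, 271, 407 and 153 CPM in feeder-free conditions. Every line was higher in feeder-free conditions than on MEF, but the groups overlapped because MEF line D exceeded feeder-free line A. The log2 fold change of MYL9 was 2.52 with an SE of 0.82 (edgeR adjusted p = 0.120) without the pairing, and 2.65 with an SE of 0.39 (edgeR adjusted p = 0.00364) with it. Without MEF line D the unpaired value of MYL9 was 3.54. MYLK, the kinase that phosphorylates these light chains, was likewise higher in each line, with 4.49, 17.1, 19.1 and 7.23 CPM on MEF and 6.68, 41.0, 33.1 and 11.5 CPM feeder-free. The paired log2 fold change of MYLK was 0.83 (SE 0.15, edgeR adjusted p = 0.00877).

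MYH9, the heavy chain of non-muscle myosin IIA, had 333, 588, 784 and 517 CPM on MEF and 348, 1231, 1814 and 789 CPM in feeder-free conditions. In each condition the lines stood in the same order, A, E, C and D, and the log2 fold change of 0.91 (SE 0.45, edgeR adjusted p = 0.279) became 0.74 (SE 0.17, edgeR adjusted p = 0.0218) with the pairing. MYL6, the essential light chain, passed in the paired fit at 0.62 (SE 0.17, edgeR adjusted p = 0.0324). MYH10, the heavy chain of myosin IIB, had 0.40 in the paired fit (SE 0.15, edgeR adjusted p = 0.0979).

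None of the 4 actins was upregulated in the unpaired edgeR fit, although all 4 were higher at an unadjusted p under 0.05 and DESeq2 called 4 and limma-voom 0. In the paired fit 3 of the 4 were upregulated. ACTB, the main cytoplasmic actin (chromosome 25, 38799230 to 38802643), had 2636, 3771, 4387 and 3804 CPM on MEF and 3375, 6782, 8254 and 5942 CPM in feeder-free conditions. It was higher in each line, and feeder-free line A fell inside the MEF range. The paired log2 fold change of ACTB was 0.69 (SE 0.12, edgeR adjusted p = 0.00622) and the unpaired one 0.74 (SE 0.27, edgeR adjusted p = 0.156). ACTB is often used as a reference gene, and its mean here was 3650 ± 733 CPM on MEF and 6088 ± 2046 CPM feeder-free (SD, n = 4).

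ACTG1, the other cytoplasmic actin (chromosome 19, 51259442 to 51262291, overlapping MIR3533), had 4983, 4411, 5226 and 5378 CPM on MEF and 4801, 7973, 10057 and 7964 CPM in feeder-free conditions. Lines C, D and E were above every MEF library and line A was within their range. The paired log2 fold change of ACTG1 was 0.58 (SE 0.16, edgeR adjusted p = 0.0347), just short of the 1.5 times threshold. The proteins of ACTB and ACTG1, and those of ACTA2 and ACTG2, are nearly identical within each pair and their genes are closely related, so some reads may be assigned uncertainly, which was not tested.

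The actins of smooth muscle changed more and less evenly. ACTA2, the alpha actin of smooth muscle and myofibroblasts (chromosome 26, 10626815 to 10644100), had 3.17, 3.67, 11.3 and 6.30 CPM on MEF and 2.75, 69.9, 297 and 29.6 CPM in feeder-free conditions. Feeder-free line A had the lowest level of all 8 libraries and feeder-free line D the highest. This spread gave the log2 fold change of 4.03 an SE of 1.14 (edgeR adjusted p = 0.0863), and 2.95 with the pairing (SE 0.70, edgeR adjusted p = 0.0228). Without feeder-free line D the unpaired value of ACTA2 was 2.48. The ratio of ACTA2 to ACTB counts, which is not corrected for length and was read only between libraries, was 0.00120, 0.000973, 0.00258 and 0.00166 on MEF and 0.000815, 0.0103, 0.0360 and 0.00497 in feeder-free conditions. ACTG2, the gamma actin of smooth muscle (chromosome 11, 10737086 to 10761240, overlapping 2 uncharacterised loci), had 24.5, 21.1, 62.4 and 40.3 CPM on MEF and 22.2, 154, 356 and 108 CPM feeder-free, with a paired log2 fold change of 1.71 (SE 0.41, edgeR adjusted p = 0.0243) and an unpaired one of 2.11, which was 1.35 without feeder-free line D.

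Of the tropomyosins, the coiled coils that lie along the actin filament, 0 of 4 were called in the unpaired edgeR fit (3 at an unadjusted p under 0.05, 2 by DESeq2 and 0 by limma-voom) and 2 in the paired fit. TPM1 had 168, 137, 172 and 176 CPM on MEF and 188, 323, 482 and 288 CPM in feeder-free conditions. TPM2 had 23.7, 34.0, 27.6 and 9.17 CPM on MEF and 43.5, 93.7, 135 and 49.8 CPM in feeder-free conditions. For both genes all feeder-free libraries were above all MEF libraries. The paired log2 fold change was 0.90 for TPM1 (SE 0.19, edgeR adjusted p = 0.0153) and 1.76 for TPM2 (SE 0.24, edgeR adjusted p = 0.00238). TPM4, the tropomyosin with the highest mean CPM, had 0.42 in the unpaired fit (SE 0.18, edgeR adjusted p = 0.199) and, with TPM3, passed in neither.

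In the focal adhesion plaque, VCL and ZYX were upregulated in the paired fit, and 0 of 5 genes in the unpaired edgeR fit (2 at an unadjusted p under 0.05, 2 by DESeq2 and 0 by limma-voom). VCL encodes vinculin, which links talin at integrins to actin (chromosome 28, 29876915 to 29989469). It had 127, 279, 482 and 137 CPM on MEF and 318, 1233, 1715 and 602 CPM in feeder-free conditions. The lines kept the order A, E, C and D in both conditions, and each rose, line A least, with log2 ratios of 1.32, 2.14, 1.83 and 2.14. The unpaired log2 fold change of VCL was therefore 1.92 with an SE of 0.58 (edgeR adjusted p = 0.102) and the paired one 1.86 with an SE of 0.15 (edgeR adjusted p = 0.000298), the lowest adjusted p of the 40 genes in that fit.

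ZYX, zyxin, a LIM protein that comes to adhesions and stress fibres under tension, had 250.4, 297, 320.3 and 220.5 CPM on MEF and 255, 555, 1001 and 554 CPM in feeder-free conditions. Lines C, D and E were above every MEF library and line A was not. The paired log2 fold change of ZYX was 0.98 (SE 0.22, edgeR adjusted p = 0.0186). The other 3 plaque genes, TLN1, PXN and TES, encode talin, paxillin and testin, and had unpaired log2 fold changes of 0.26 to 0.55 with none passing in either fit.

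None of the 4 crosslinkers passed in the unpaired or paired edgeR fit, by DESeq2 or by limma-voom, and 0 had an unadjusted p under 0.05. FLNA, filamin A, which joins actin filaments into networks, had 1415, 2021, 2282 and 1808 CPM on MEF and 1422, 2248, 2417 and 1590 CPM in feeder-free conditions. The ranges of FLNA lay almost on top of each other, and its log2 fold change was 0.03 (SE 0.22, edgeR adjusted p = 0.961), with a sign that turned when single libraries were left out. The actinins ACTN1 and ACTN4 and filamin C (FLNC) had log2 fold changes of 0.40, 0.37 and 0.23. The median of the group was 0.30.

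SRF itself was higher in feeder-free conditions in each line, while its cofactors were not. SRF (chromosome 23, 16775130 to 16782650) had 56.0, 79.2, 89.6 and 66.4 CPM on MEF and 65.1, 119, 152 and 123 CPM in feeder-free conditions. Only feeder-free line A lay within the MEF range. SRF had a log2 fold change of 0.66 (SE 0.25, edgeR adjusted p = 0.165) and 0.62 in the paired fit (SE 0.13, edgeR adjusted p = 0.0141), which was called there. SRF is also a target of its own pathway.

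MRTFA had 67.0, 71.8, 80.4 and 63.3 CPM on MEF and 48.6, 70.5, 72.5 and 59.9 CPM in feeder-free conditions. MRTFB had 92.0, 81.9, 87.8 and 95.0 CPM on MEF and 80.7, 84.7, 89.2 and 80.6 CPM feeder-free. The ranges of the conditions overlapped for both, and their log2 fold changes were -0.17 (SE 0.15, edgeR adjusted p = 0.567) and -0.09 (SE 0.10, edgeR adjusted p = 0.661). RNA levels do not report where the MRTF proteins were in the cell, which is the step at which they are known to be controlled.

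**Figure D4:**
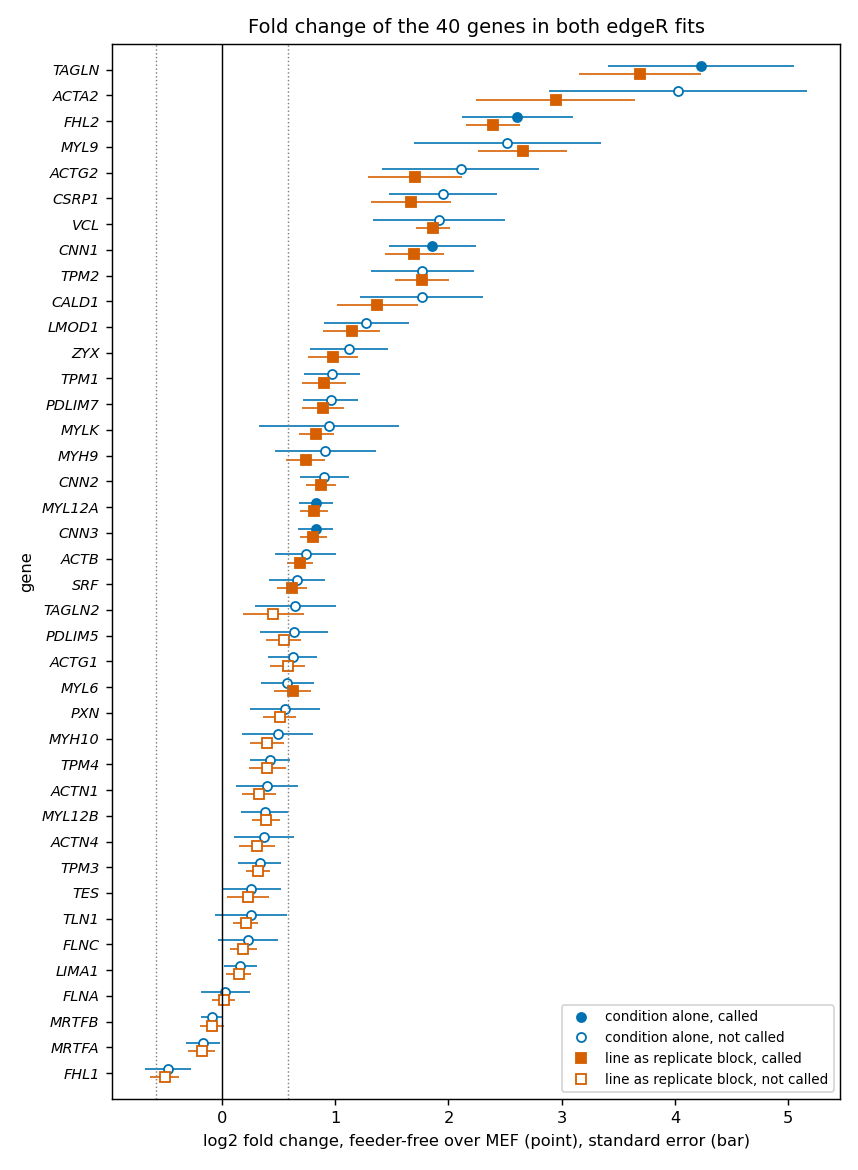
Log2 fold change, feeder-free over MEF (horizontal axis), of each of the 40 genes in the unpaired fit (blue circles) and in the fit with line as a block (orange squares), with bars of 1 standard error, filled where the gene was called and dotted lines at a fold change of 1.5 in either direction. The estimates of the fits differ most for ACTA2 (4.03 and 2.95) and TAGLN (4.23 and 3.69), the orange bars are mostly shorter, 5 circles and 22 squares are filled, and only MRTFB, MRTFA and FHL1 lie below 0.

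Genes that act beside these 40 were taken from lists of MRTF and SRF targets, of immediate early genes and of focal adhesion genes, and all but ACTA1, skeletal actin, which was too low, were tested. Among 18 tested further targets of MRTF and SRF, 1 was upregulated in the unpaired edgeR fit and 11 in the paired fit, with 0 lower in either (0 lower at an unadjusted p under 0.05 and by DESeq2 and limma-voom), and their median log2 fold change was 0.85. Of all genes, 0.724% were called higher in the unpaired and 5.52% in the paired fit, and 1.00% and 4.53% lower. With 18 genes, 0 called lower is near those shares. ACTC1, the alpha actin of heart, had 9.77, 8.84, 22.8 and 11.6 CPM on MEF and 14.1, 165, 593 and 67.4 CPM in feeder-free conditions, with overlap through line A alone. Its paired log2 fold change was 3.09 (SE 0.61, edgeR adjusted p = 0.0112). CCN1, a secreted matricellular protein, had 8.31, 25.2, 55.0 and 15.6 CPM on MEF and 31.9, 267, 587 and 105 CPM feeder-free, higher in each line, with a paired log2 fold change of 2.90 (SE 0.23, edgeR adjusted p = 0.000298). CCN1 is also known as a target of YAP and TEAD.

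SRF works with a second family of cofactors, the TCFs, at immediate early genes. Of 12 TCF and immediate early genes, 1 was upregulated in the unpaired and 5 in the paired fit, 0 were lower in either (0 at an unadjusted p under 0.05 and by DESeq2 and limma-voom), and the median was 1.05. The shares of all genes were 0.724% and 5.52% higher and 1.00% and 4.53% lower, so 0 of 12 called lower is near them. FOS, a subunit of AP-1, had 1.80, 0.127, 0.661 and 0.408 CPM on MEF and 7.87, 6.82, 10.4 and 7.41 CPM in feeder-free conditions. Line A took part here, and no feeder-free library overlapped the MEF libraries. Its log2 fold change was 3.45 (SE 0.66, edgeR adjusted p = 0.0403). EGR3, a zinc finger factor, had a paired log2 fold change of 1.63 (SE 0.36, edgeR adjusted p = 0.0171). The median log2 ratio of these 12 genes was 0.55 in line A, 0.50 in line C, 1.11 in line D and 1.03 in line E. For these genes the median of line A was above that of line C, whereas for the 40 cytoskeletal genes it was below those of the other 3 lines.

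Of 28 further focal adhesion genes, 1 was upregulated and 2 were downregulated in the unpaired edgeR fit, and 9 and 2 in the paired fit. At an unadjusted p under 0.05, 12 of them were higher and 4 lower. In the unpaired fit, the 2 of 28 called lower stood against 1.00% of all genes, and the 1 of 28 called higher against 0.724%. The other shares of lower genes, 2 of 28 in the paired fit and 4 of 28 at an unadjusted p, were near the 4.53% and 11.4% of all genes. For higher genes, 9 of 28 in the paired fit and 12 of 28 at an unadjusted p stood against 5.52% and 10.2% of all genes. TGFB1I1, a LIM protein related to paxillin that is also on the list of MRTF and SRF targets, had 7.97, 6.70, 8.11 and 5.01 CPM on MEF and 14.4, 23.4, 56.9 and 29.8 CPM feeder-free, without overlap. Its log2 fold change was 2.16 (SE 0.39, edgeR adjusted p = 0.0376). LIMS2, an adaptor of integrin-linked kinase, had a mean of 1.77 ± 0.68 CPM on MEF and 7.86 ± 4.62 CPM feeder-free (SD, n = 4) and a paired log2 fold change of 2.04 (SE 0.25, edgeR adjusted p = 0.00189).

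The 2 genes of this list called lower in feeder-free bESCs were a kinase and a talin. SRC, the tyrosine kinase that signals at adhesions, had 85.4, 78.2, 81.1 and 90.7 CPM on MEF and 46.0, 54.7, 38.7 and 54.0 CPM in feeder-free conditions. TLN2, the second talin, had 59.1, 73.9, 76.8 and 70.0 CPM on MEF and 36.6, 47.0, 42.7 and 38.7 CPM in feeder-free conditions. Neither gene overlapped between conditions, and line A fell with the other lines. The log2 fold changes were -0.79 for SRC (SE 0.13, edgeR adjusted p = 0.0331) and -0.76 for TLN2 (SE 0.13, edgeR adjusted p = 0.0331), the latter beside 0.26 for TLN1 (SE 0.32, edgeR adjusted p = 0.700).

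Several of the 40 genes are also expressed by fibroblasts and smooth muscle, so markers of other cell types were read in the same libraries. The 17 fibroblast markers summed to 541, 634, 596 and 555 CPM on MEF and 306, 924, 1320 and 455 CPM in feeder-free conditions, and the feeder-free libraries stood in the same order, A, E, C and D, as for the summed 40 genes. In line E the fibroblast sum was lower in feeder-free conditions than on MEF, while the sum of the 40 genes was higher. COL1A1, a chain of type I collagen and the marker with the most counts, had 292, 383, 366 and 369.9 CPM on MEF and 115, 597, 1033 and 283 CPM in feeder-free conditions. Most of the sum came from COL1A1, with a mean of 353 of 582 CPM on MEF and 507 of 751 CPM feeder-free. COL1A2, the partner chain, went from a mean of 2.71 to 0.157 CPM, and PRRX1, a mesenchymal factor, from 1.84 to 0.175 CPM. COL3A1, the chain of type III collagen, went the other way, from a mean of 0.769 to 4.69 CPM. LUM, a proteoglycan of collagen matrix, had a mean of 19.0 ± 4.16 CPM on MEF (SD, n = 4) and 22.7, 72.7, 58.6 and 15.3 CPM in feeder-free conditions, with lines C and D highest. The markers did not share a single order of lines in feeder-free conditions. COL3A1 had 1.44, 4.99, 10.5 and 1.85 CPM there, in the order of the sum. TWIST1 was highest in line A, at 17.5, 6.80, 7.44 and 8.64 CPM. DCN was lowest in line D, at 6.10, 10.9, 4.29 and 4.77 CPM, and FBLN1 in line E, at 123, 189, 167 and 117 CPM. TWIST2 and FAP were at 0 counts in all 4 feeder-free libraries, and FAP and DPT were under 10 counts in every library. In edgeR's unpaired fit 0 of the 14 tested fibroblast markers were called in either direction (2 higher and 2 lower at an unadjusted p under 0.05, 1 higher and 2 lower by DESeq2, 0 by limma-voom), and in the paired fit COL3A1 and POSTN were higher and COL1A2 and PRRX1 lower.

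The 8 smooth muscle markers summed to 162, 211, 193 and 131 CPM on MEF and 151, 220, 253 and 148 CPM in feeder-free conditions, most of it from NOTCH3, whose mean was 132 CPM on MEF and 99.8 CPM feeder-free. None of 6 tested was called in the unpaired edgeR fit (3 higher and 1 lower at an unadjusted p under 0.05, 3 higher by DESeq2, 0 by limma-voom), and MYH11, DES, SYNPO2 and MCAM were higher in the paired fit. MYH11, the heavy chain of smooth muscle myosin, had 0.888, 2.25, 3.08 and 2.02 CPM on MEF and 2.77, 11.6, 44.3 and 2.25 CPM in feeder-free conditions, with the largest rises in lines C and D. MCAM, an adhesion molecule of vessel walls, had 14.8, 14.3, 20.0 and 8.86 CPM on MEF and 23.6, 43.8, 58.3 and 31.8 CPM feeder-free, without overlap. Of the other smooth muscle markers, DES was below 1.5 CPM in each library, MYOCD, the smooth muscle cofactor of SRF, was under 10 counts in each library, and RGS5 was at 0 in all 8. MYH11, DES, SMTN and SYNPO2 are also on the list of MRTF and SRF targets. The part of other cell types in the levels of the 40 genes was not tested.

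**Figure D5:**
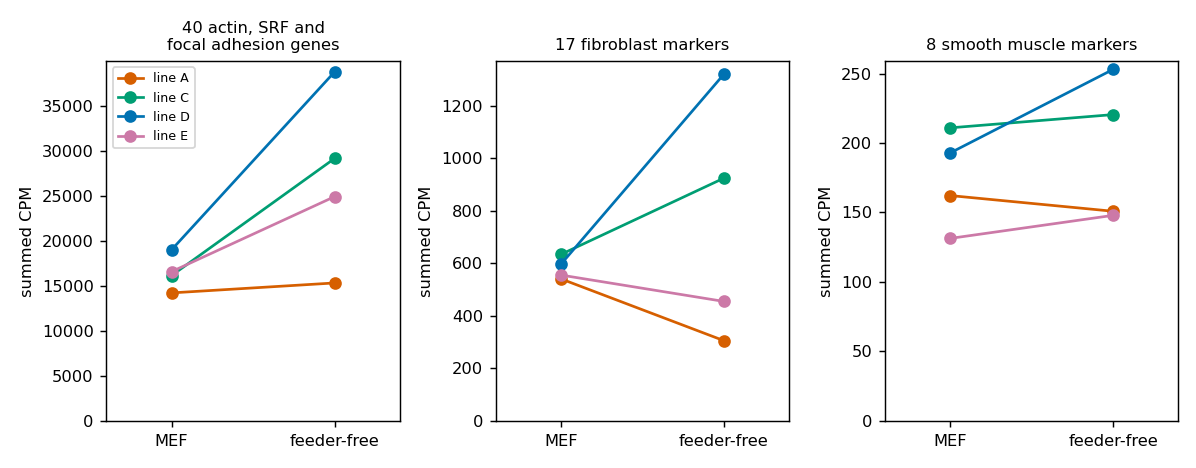
Summed CPM of the 40 genes, of 17 fibroblast markers and of 8 smooth muscle markers (vertical axes starting at 0) on MEF and in feeder-free conditions, with 1 line per cell line. In feeder-free conditions the sums of the 40 genes and of the fibroblast markers stand in the same order of lines, from A (15309 and 306 CPM) to D (38727 and 1320 CPM). The fibroblast sum is mostly COL1A1, and it is lower in feeder-free conditions than on MEF in lines A and E.

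Markers of early lineages were read in the same way. The 7 mesoderm markers summed to a mean of 6.81 CPM on MEF and 11.7 CPM feeder-free, led by EOMES, which was higher in the paired fit. The 7 trophoblast markers summed to 26.5 and 71.7 CPM, led by KRT7, with PTGS2 called higher in the unpaired and KRT7 and PTGS2 higher and GATA2 lower in the paired fit, and CDX2 and IFNT2 at 0 in all 8 libraries. KRT7, a keratin of simple epithelia, had 36.7, 19.0, 20.9 and 20.6 CPM on MEF and 40.9, 60.3, 59.6 and 113 CPM in feeder-free conditions, without overlap. The 6 endoderm markers summed to 8.54 and 4.90 CPM, led by FOXA2, with GATA4 under 10 counts in every library. Of these markers, 0 were called by either edgeR fit, DESeq2 or limma-voom, and 0 had an unadjusted p under 0.05 in the unpaired fit. FOXA2 was lower in feeder-free conditions in every line, with a paired log2 fold change of -0.78 (SE 0.25, edgeR adjusted p = 0.0631).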

How the data were processed

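The authors trimmed reads with Trimmomatic, aligned them to ARS-UCD2.0 with STAR, removed optical duplicates and low-quality alignments, and deposited raw counts per gene from featureCounts (Subread 1.6.2 per the submitters' processing notes). The strand setting is not given in the sources used here, so overlapping genes (16 of the 40 members) cannot be separated. Per the study's methods, reads from MEF alone that aligned to cattle were taken out of the MEF-condition counts. The MEF sample was not analysed here, and the effect of this step on actin genes was not tested. All records give 1 batch.

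Of 32640 genes, 3 without values (NEB, SYNE1, DST) were left out. edgeR 4.0.16 in R 4.3.3 (filterByExpr, TMM, glmQLFit, glmQLFTest) tested 15744 genes on condition alone, with Benjamini-Hochberg adjustment. The study's methods name edgeR, TMM and the thresholds used here, but neither the test nor a pairing. Line ratios used a prior count of 2. Total counts ranged from 44268717 to 102351560, and each member had at least 132 counts in each library. No pair of libraries within a condition was a duplicate (smallest chi-square per degree of freedom 40.8 over 12 pairs). The same lines were used in both conditions, and deviations of a line's libraries correlated at 0.582, 0.557, 0.664 and 0.421 (A, C, D, E), those of different lines at -0.523 to 0.249, so a paired fit with line as a replicate block was added.

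The 40 members and all lists were chosen with earlier results of these data known. The results of 1 accompanying list are not reported here. Genes were named where called in either fit, where highest in mean CPM in their role group, as SRF, MRTFA and MRTFB, and, of the accompanying lists, where called unpaired or among the 2 largest paired rises and falls. Other members and markers were named after their values were seen. Coordinates are RefSeq gene spans on ARS-UCD2.0, which matched all 40 symbols. No exon lengths were used, so an order of genes by CPM is one of counts, not of transcript levels. Alternatives were RLE factors, no scaling, other count filters, DESeq2 1.42.0, the likelihood ratio test of edgeR, limma-voom (limma 3.58.1), no fold threshold, each library left out and, chosen after seeing the data, each line left out of the paired fit and line D thinned. The fits were tested on simulated data.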

Additional observations from a re-analysis of the deposited data

Results flagged for a closer look

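Each member was examined in each condition for a library that stood apart from the other 3, on the log2 CPM scale. Of 80 groups of 4 libraries examined, 2 held one, where chance alone gives about 1 in 20 groups, or 4 here. TPM1 in line C on MEF was the lowest, at 7.10 against 7.40 to 7.46 in the other lines. FLNC, the filamin of muscle, was lowest in line A on MEF, at 7.22 against 7.87 to 7.99. FLNC in feeder-free line A was also the lowest of its condition, at 150.2 CPM beside 149 CPM on MEF. Neither difference was tested further.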

How the results depend on the processing

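Of the 40 genes, the 5 upregulated in edgeR's unpaired fit became 22 with the replicate block (paired by line), 23 with the block and RLE factors, 17 with the likelihood ratio test, 19 with DESeq2 and 2 with limma-voom (CNN3 and MYL12A). Over all 15744 genes, the count called higher was 114 in the unpaired fit, 869 with the block, 910 with the block and RLE factors, 448 with the likelihood ratio test, 695 with DESeq2 and 79 with limma-voom. The count was 5 with RLE factors, without a filter, without a fold threshold and with line D thinned, 4 without scaling and 6 with at least 10 counts in each library. Leaving out 1 library gave 0 to 17: 17 without feeder-free line A (259 of all genes) and 0 without any one of the other 7, where over all genes at most 1 was called higher and 5 lower. The paired count of 22 ranged from 10 to 24 without 1 line (24 without A, 10 without C, 12 without D, 15 without E), with fewer samples by construction, and was 22 with line D thinned. No member was called lower in any setting. The median log2 fold change of the 40 genes lay between 0.51 and 0.89. In the 4 accompanying lists together (89 genes, 88 tested), the 2 genes higher became 28 and the 2 lower became 3 with the replicate block, and 0 to 13 and 0 to 2 without 1 library. The sign of FLNA turned without MEF line A (-0.09), feeder-free line C (-0.06) or feeder-free line D (-0.10), and it ranged up to 0.15. The other 27 of the 28 members chosen by the naming rule kept their direction in all 17 alternatives each, and the remaining members were not run singly. Each member had at least 132 counts in every library. The smallest adjusted p over all genes in the unpaired fit was 0.0196.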
